A study of Mus musculus with 21 samples.

Results

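Hif1a and 9 genes known as targets of its protein outside glycolysis were followed across bulk RNA sequencing of mouse bone-marrow-derived macrophages. The 10 genes, Hif1a, Egln1, Egln3, Bnip3, Bnip3l, Ero1l, P4ha1, Vegfa, Adm and Ddit4, were named by symbol, with earlier results of these data known. All 10 were found among the 34573 genes of the count table. Macrophages were grown for 6 days from marrow of C57bl/6 mice aged 12 weeks, with medium conditioned by L929 cells as the source of the growth factor M-CSF. They were left untreated or given succinate or dimethyl malonate (DMM) for 3 h, then left alone or stimulated with lipopolysaccharide (LPS), a component of bacterial outer membranes. DMM releases malonate, which competes with succinate at succinate dehydrogenase of the mitochondrial respiratory chain. The labels state no doses.

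There were 21 libraries in 9 groups. With LPS for 48 h there were 2 libraries after DMM, 1 after succinate and 2 without pretreatment. With LPS for 4 h there were likewise 2 after DMM, 1 after succinate and 2 without pretreatment. The unstimulated libraries were 4 with DMM, 4 with succinate and 3 controls, numbered 1, 3 and 4. They accompanied both LPS times, but their column names give no hours, so they were merged. Any difference between the sets of the LPS times is mixed into these groups. For LPS at 48 h against 4 h, time and set cannot be told apart. Nothing in the labels ties replicates to different mice or dishes, and the p-values below therefore reflect the spread among these libraries, perhaps only technical. Library totals ran from 662186 to 1546867 counts. All 8 macrophage markers were detected, and their summed level was 53969 CPM or higher in each library of the 9 groups (CPM, read counts scaled to a common library size as described with the processing). Of the neutrophil list only S100a8 passed 3 CPM, with Ly6g and Ltf at 0, and no marker of B or T cells, mast cells or erythroid cells passed 1.58 CPM. Of the dendritic cell list, Flt3 reached 9.50 CPM in 1 library and the other markers stayed under 4 CPM.

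The library labelled LPS 48 h replicate 1 was kept apart. It held 38.3 CPM of Hif1a, 13.3 of Ero1l, 49.8 of P4ha1 and 5.34 of Bnip3, and no read of Egln3. Those values lie within the range of the 11 unstimulated libraries and below all 9 other stimulated libraries. LPS for 48 h alone therefore rests on 1 library in the fits, as does each succinate-then-LPS group, and these lone libraries are assumed to vary like the others.

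HIF-1 is a transcription factor made of an oxygen-regulated subunit, encoded by Hif1a, and a stable partner. When oxygen is plentiful, prolyl hydroxylases of the Egln family mark the HIF-1α protein, and the VHL ubiquitin ligase has it destroyed. These hydroxylases use oxygen and 2-oxoglutarate and release succinate, and in macrophages LPS is known to raise HIF-1α through NF-κB and through succinate. Only transcripts were measured here, so nothing below bears on the amount of the protein.

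HIF-1 binds DNA at a core of 5 bases, ACGTG or GCGTG. The 250 bases before the transcription start were searched for both motifs on both strands in the windows of the 9 genes with an entry in RefSeq (GRCm38.p6), 1 window each except Vegfa, which has 2; Bnip3l was not matched. Of the 10 windows, 9 held at least 1 match and 8 held ACGTG, against 38.6% and 16.6% of all 32851 windows of this length. The window without a match was the upstream one of Vegfa (chr17:46032378-46032627). The Vegfa window with matches (chr17:46025164-46025413) lies within the gene. The Hif1a window likewise lies within the gene as placed by GENCODE (73901375 to 73947530). The windows of Egln1, Bnip3, Ddit4 and Ero1l overlap their GENCODE genes in part. The gene windows had a median of 68.0% G and C, against 52.4% over all windows, and matches to these GC-rich letters were not adjusted for that. The windows of the 5 genes that rose with LPS (below) are printed 5′ to 3′ on the gene's strand, with matches in capitals; CACGT and CACGC are the matches read on the other strand, and CACGTG matches on both.
Hif1a (chr12:73907617-73907866, + strand): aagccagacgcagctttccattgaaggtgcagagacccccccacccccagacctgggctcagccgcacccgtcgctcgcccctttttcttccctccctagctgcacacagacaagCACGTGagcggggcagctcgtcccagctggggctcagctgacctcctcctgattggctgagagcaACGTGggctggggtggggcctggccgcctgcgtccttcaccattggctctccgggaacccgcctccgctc
Egln3 (chr12:54203875-54204124, - strand): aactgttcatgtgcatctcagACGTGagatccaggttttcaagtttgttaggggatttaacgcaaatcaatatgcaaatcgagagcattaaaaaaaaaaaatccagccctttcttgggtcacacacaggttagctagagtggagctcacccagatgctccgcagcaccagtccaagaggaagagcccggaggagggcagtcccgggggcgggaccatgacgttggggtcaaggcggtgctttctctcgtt
Bnip3 (chr7:138909507-138909756, - strand): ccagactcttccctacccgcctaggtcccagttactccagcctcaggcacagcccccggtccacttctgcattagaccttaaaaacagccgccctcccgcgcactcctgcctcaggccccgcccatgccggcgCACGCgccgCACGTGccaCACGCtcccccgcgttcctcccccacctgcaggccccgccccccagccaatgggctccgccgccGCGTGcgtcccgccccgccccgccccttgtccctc
Ero1l (chr14:45318573-45318822, - strand): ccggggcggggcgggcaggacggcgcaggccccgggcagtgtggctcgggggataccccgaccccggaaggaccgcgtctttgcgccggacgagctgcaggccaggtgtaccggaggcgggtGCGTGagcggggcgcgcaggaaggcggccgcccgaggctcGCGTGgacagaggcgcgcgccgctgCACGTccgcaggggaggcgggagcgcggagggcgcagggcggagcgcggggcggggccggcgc
P4ha1 (chr10:59323046-59323295, + strand): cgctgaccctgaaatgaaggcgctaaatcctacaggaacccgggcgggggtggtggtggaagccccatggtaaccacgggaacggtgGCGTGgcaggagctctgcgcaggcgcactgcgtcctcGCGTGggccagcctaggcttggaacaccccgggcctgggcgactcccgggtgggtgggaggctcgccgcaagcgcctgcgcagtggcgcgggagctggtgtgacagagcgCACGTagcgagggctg
Bnip3 had 5 matches, 2 of them on the opposite strands of 1 CACGTG at 108 to 103 bases before the start. Hif1a had 3, of which 2 were likewise 1 CACGTG at 135 to 130 bases and the other lay at 70 to 66 bases. Ero1l and P4ha1 had 3 each, 2 GCGTG and 1 ACGTG, and Egln3 had a single ACGTG at 229 to 225 bases. A match describes the letters only, and binding was not measured.

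With LPS, Hif1a itself rose. Hif1a (chromosome 12, 73901375 to 73947530, + strand of GRCm38, 15 merged exon blocks) lay at 377 CPM in the LPS 48 h library and at 651 and 721 CPM in the LPS 4 h libraries, against 75.5, 73.9 and 43.4 CPM in controls. Both LPS groups lay well clear of the controls. The log2 fold change against control was 2.55 ± 0.43 at 48 h (SE; 1 against 3 libraries; edgeR quasi-likelihood test, Benjamini-Hochberg (BH) adjusted p = 7.52e-06) and 3.42 ± 0.34 at 4 h (2 against 3 libraries; adjusted p = 2.13e-09). With the set-apart library included, the change at 48 h was 1.75 with an adjusted p of 0.0748, so that call rests on leaving it out. After DMM, Hif1a lay at 147 and 359.8 CPM with LPS for 48 h and at 305 and 391 CPM with LPS for 4 h, against 49.1, 32.1, 54.6 and 56.5 CPM with DMM alone. Its log2 fold changes over DMM alone were 2.40 ± 0.33 at 48 h and 2.86 ± 0.32 at 4 h. Exons of Hif1a overlap those of the antisense gene Gm15283 over 330 bases and of Gm49321 over 148, and as the use of strand is not stated, reads there cannot be told apart.

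**Figure D1:**
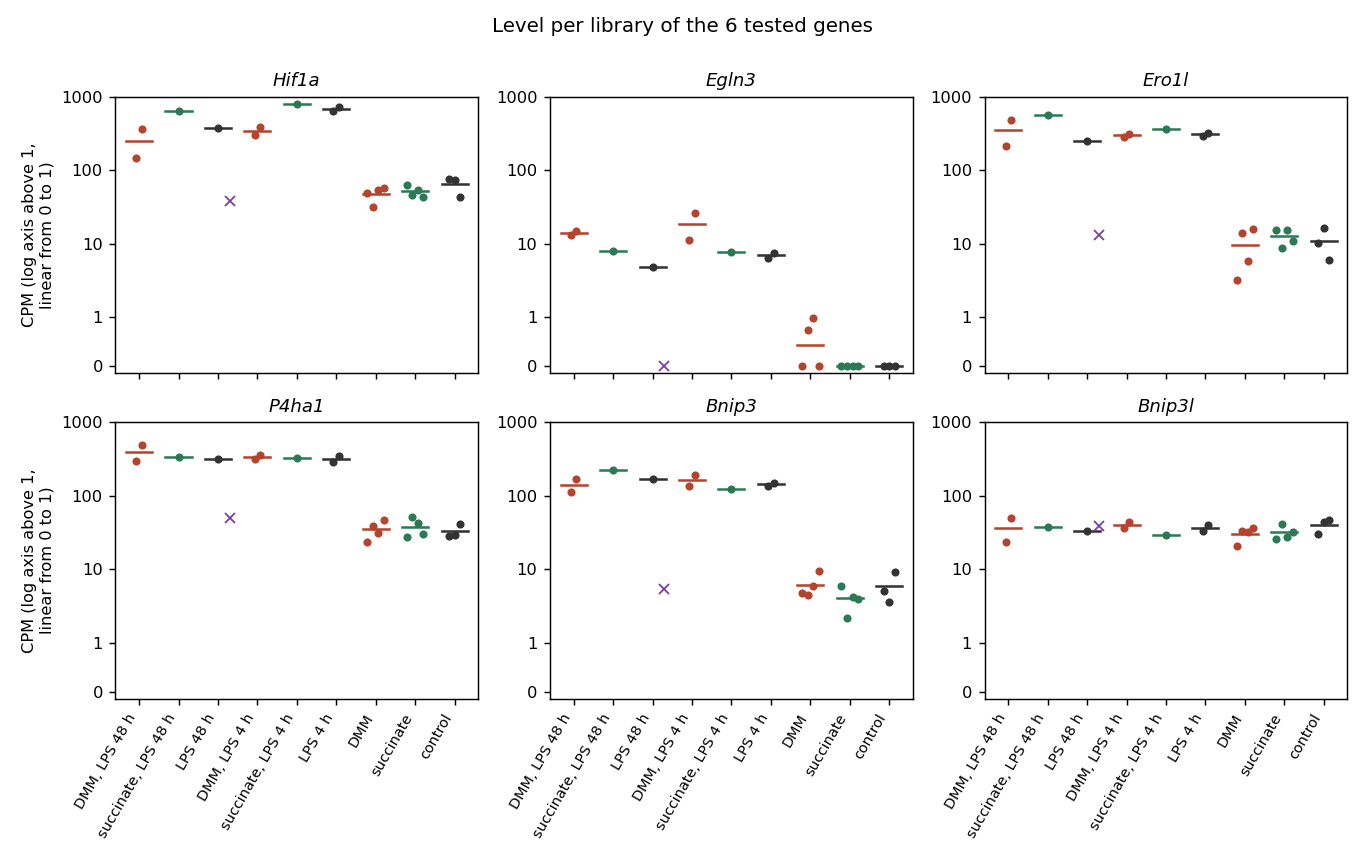
Level of the 6 tested genes in each library (CPM on a log axis above 1, linear from 0 to 1); each point is 1 library, each line a group mean, and the cross is the set-apart library labelled LPS 48 h replicate 1. Hif1a, Egln3, Ero1l, P4ha1 and Bnip3 are higher in the 9 stimulated libraries that were kept than in any of the 11 unstimulated ones. The set-apart library, left out of that statement, looked unstimulated in these same genes. Bnip3l lies between 20.6 and 49.8 CPM throughout.

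In all, 6 of the 10 genes passed the filter on low counts (10 reads per median library in at least 2 libraries), and 4 did not. Of the 6, 5 rose with LPS for 48 h, where 12.5% of the 6812 tested genes rose, and the same 5 rose with LPS for 4 h, where 15.4% rose. The 5 were Hif1a, Egln3, Bnip3, Ero1l and P4ha1. Both comparisons share the 3 control libraries. The 48 h count leaves out the set-apart library, which looked unstimulated in these same genes, so it depends on that choice. With all 21 libraries, Hif1a and Egln3 were not called at 48 h. After DMM the count was again 5 of 6 over DMM alone, at 48 h (15.4% of all genes rose) and at 4 h (15.8%), and these comparisons share the 4 DMM libraries. The median log2 fold change of the 6 was 3.87 at 48 h and 3.98 at 4 h against control, beside -0.09 and -0.07 over all tested genes. A gene that passes the filter only where it is high has to differ, which holds for Egln3, so these counts cover only the genes that passed.

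Egln3, also called PHD3, is one of the hydroxylases that mark HIF-1α and is itself a known HIF-1 target. Egln3 (chromosome 12, 54178981 to 54203860, - strand) had 5 reads in the LPS 48 h library, 6 and 7 reads in the LPS 4 h libraries and no read in any control. The levels were 4.83 CPM at 48 h and 6.40 and 7.53 CPM at 4 h, and 0 reads in the 3 controls allow up to 1.06 CPM (3 counts over the group; floors and intervals on counts cover counting error only). Egln3 was thus at least 4.54-fold higher at 48 h (adjusted p = 0.0155, edgeR) and at least 6.55-fold higher at 4 h (adjusted p = 0.00111). The 48 h call was lost with all 21 libraries (adjusted p = 0.166), and DESeq2 gave no adjusted p. After DMM the levels were 13.0 and 15.03 CPM with LPS for 48 h and 11.2 and 26.0 CPM with LPS for 4 h, against 2 reads in the 4 libraries with DMM alone. The ratios of scaled counts over DMM alone were 28.9 at 48 h (95% counting interval 7.36 to 249) and 34.8 at 4 h (9.14 to 296). Egln3 passed the filter through these 4 DMM-then-LPS libraries alone.

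Egln1, or PHD2, is the hydroxylase known to set HIF-1α levels at normal oxygen. Egln1 (chromosome 8, 124908587 to 124949324, - strand) fell under the filter, with 78 reads over 20 libraries. Its levels were 7.29 and 9.39 CPM with DMM then LPS for 48 h, 3.86 CPM with LPS for 48 h, 5.62 and 12.1 CPM with DMM then LPS for 4 h and 4.27 and 4.30 CPM with LPS for 4 h. With LPS after succinate it was at 2.27 CPM at 48 h and 6.44 CPM at 4 h, and the unstimulated libraries held 0 to 2.98 CPM. The stimulated and unstimulated ranges overlapped. Without the filter on low counts (21320 genes tested), Egln1 rose over DMM alone by 2.05 at 48 h (adjusted p = 0.0303) and by 2.09 at 4 h (adjusted p = 0.0170). The same fit gave 1.97 for LPS at 4 h against control, with an adjusted p of 0.311.

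Bnip3 and Bnip3l, related mitophagy receptors of the outer mitochondrial membrane, parted. Bnip3 (chromosome 7, 138890836 to 138909519, - strand) lay at 169.9 CPM with LPS for 48 h and at 137 and 149.5 CPM with LPS for 4 h, against 5.10, 3.52 and 9.08 CPM in controls. Its log2 fold change was 4.80 ± 0.45 at 48 h (adjusted p = 2.65e-11, edgeR) and 4.55 ± 0.40 at 4 h (adjusted p = 5.92e-12). Bnip3l (chromosome 14, 66985239 to 67008877, - strand) lay at 32.8 CPM at 48 h and at 33.1 and 39.8 CPM at 4 h, against 30.6, 43.4 and 46.4 CPM in controls, so its groups overlapped at 4 h and the 48 h library fell within the control range. Its log2 fold change was -0.29 at 48 h (95% interval -1.10 to 0.53) and -0.14 at 4 h (-0.78 to 0.51), and neither passed the test. Within a library, Bnip3 had 3.36 to 6.00 reads per read of Bnip3l in the 9 stimulated libraries, against 0.0526 to 0.262 in the 11 unstimulated libraries. The mean log2 ratio differed by 4.85 (two-sided exact permutation test over libraries, p = 5.95e-06, the smallest that 167960 arrangements can give). The set-apart library, though labelled LPS, was left out of this test, and its ratio lay within the range of the unstimulated libraries. It was kept apart on values that include Bnip3, and the ratio was chosen after the values were seen. The p-value depends on both choices, so no conclusion is drawn from it. Antisense Gm45507 overlaps 504 exon bases of Bnip3, and Bnip3l has a processed copy whose reads may be shared, so both levels carry that uncertainty.

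Both genes that act in the secretory pathway rose. Ero1l, named Ero1a in RefSeq, encodes an oxidase that renews disulfide-bond formation in the endoplasmic reticulum. Ero1l (chromosome 14, 45283087 to 45318771, - strand) lay at 248 CPM with LPS for 48 h and at 298 and 319 CPM with LPS for 4 h, against 10.2, 16.4 and 6.05 CPM in controls. Its log2 fold change was 4.52 ± 0.51 at 48 h (adjusted p = 6.36e-09, edgeR) and 4.83 ± 0.44 at 4 h (adjusted p = 1.42e-10). P4ha1 encodes a catalytic subunit of the prolyl hydroxylase that modifies collagen, an enzyme of the same 2-oxoglutarate-dependent class as the Egln proteins. P4ha1 (chromosome 10, 59323296 to 59373304, + strand) lay at 313 CPM at 48 h and at 292 and 349 CPM at 4 h, against 28.6, 29.3 and 41.4 CPM in controls. Its log2 fold change was 3.23 ± 0.40 at 48 h (adjusted p = 3.5e-08) and 3.27 ± 0.33 at 4 h (adjusted p = 1.57e-09). For both genes the stimulated and control libraries lay far apart.

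Per kilobase of exon (GENCODE vM21), the order of the group means of the 4 most abundant induced genes was not the same with and without DMM. With DMM then LPS for 4 h the mean level was 59.0 CPM per kb for Hif1a, 82.5 for P4ha1, 72.7 for Bnip3 and 56.6 for Ero1l. With LPS for 4 h it was 116 CPM per kb for Hif1a, 77.9 for P4ha1, 63.1 for Bnip3 and 58.4 for Ero1l. By these means, at 4 h, Hif1a stood below P4ha1 and Bnip3 after DMM, and above the other 3 genes without it. At 48 h Hif1a stood below P4ha1 and Bnip3 in both groups. It was at 42.9 against 95.4 and 62.1 CPM per kb after DMM. Without DMM it was at 64.0 against 76.0 and 75.0 CPM per kb, in 1 library. Controls held 10.9 CPM per kb of Hif1a, 8.04 of P4ha1, 2.60 of Bnip3 and 2.06 of Ero1l. Over all stimulated and all unstimulated libraries, Bnip3l averaged 9.40 and 8.69 CPM per kb, and Egln3 averaged 4.16 and 0.0588 CPM per kb. Whether the larger fold changes of Bnip3 and Ero1l differ from those of Hif1a and P4ha1 was not tested.

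**Figure D2:**
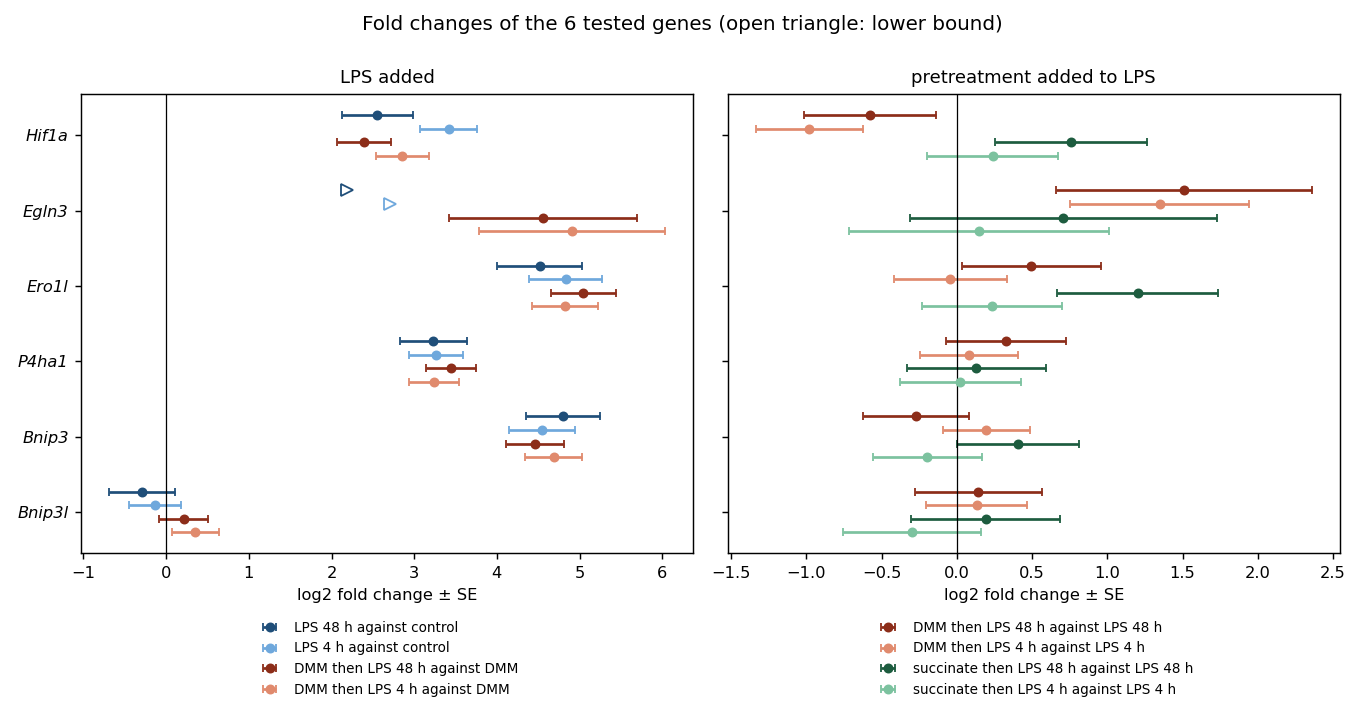
Log2 fold changes ± SE of the 6 tested genes from the edgeR fit, LPS against its unstimulated group on the left and pretreatment with LPS against LPS alone on the right; open triangles are lower bounds for Egln3, whose controls held no read. On the left the Bnip3l values lie between -0.29 and 0.35 and the others at 2.40 or above or at a bound; on the right no gene passed the test, with Hif1a at -0.98 and Egln3 at 1.35 for DMM then LPS for 4 h.

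The 3 secreted or signalling targets were barely detected. Vegfa, the angiogenic growth factor (chromosome 17, 46016993 to 46032369, - strand), had 44 reads over 20 libraries and at most 7 in any. Its levels were 4.05 and 3.76 CPM with DMM then LPS for 48 h against no read with LPS for 48 h, and 3.93 and 4.64 CPM with DMM then LPS for 4 h against 2.13 and 0 CPM with LPS for 4 h. The ratio of scaled counts at 4 h was 3.92 (95% counting interval 0.873 to 36.1), so a difference was not detectable at this depth. Adm, the vasodilator peptide adrenomedullin (chromosome 7, 110627661 to 110629820, + strand), had 9 reads in all and at most 3 in a library, 8 of the 9 in stimulated libraries. Ddit4, which restrains mTORC1 (chromosome 10, 59949669 to 59951834, - strand), had 5 reads in all and never more than 1. No fold is given for Adm or Ddit4.

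**Figure D3:**
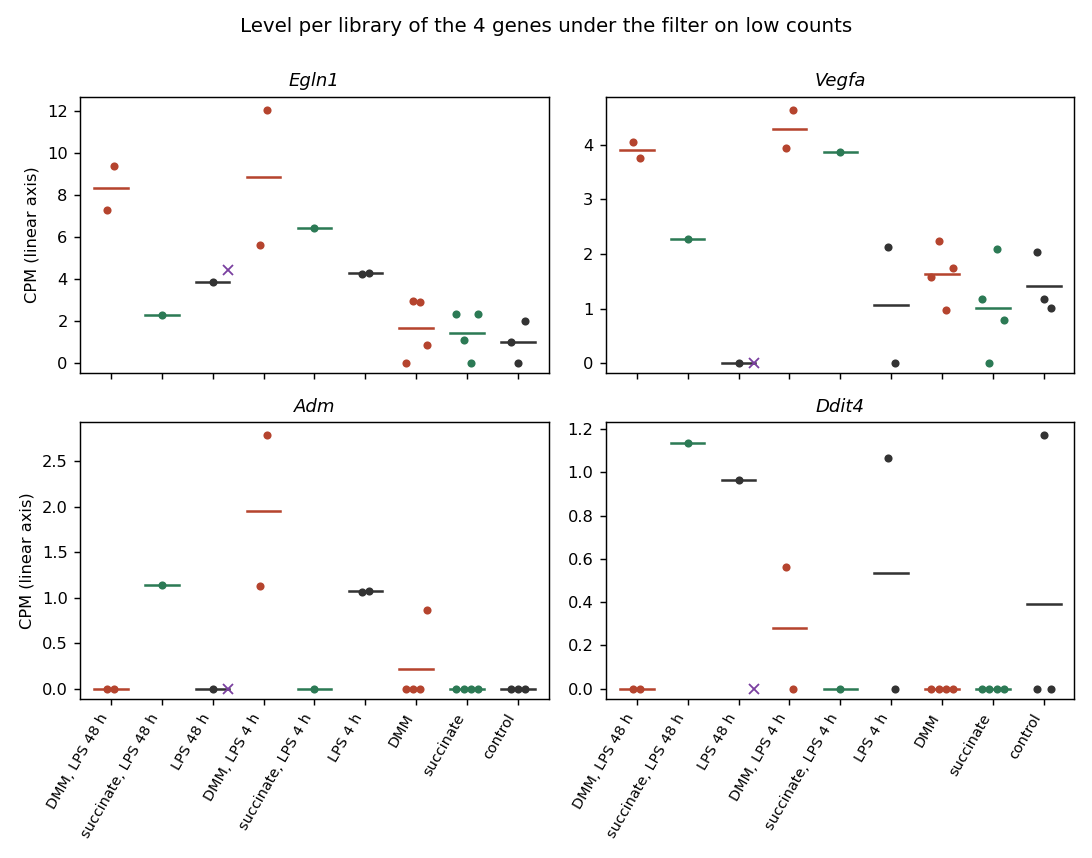
Level of the 4 genes under the filter in each library (CPM, linear axes that differ between panels); points, lines and the cross as in the plot of the tested genes. Egln1 reaches 12.1 CPM and Vegfa 4.64 CPM, both in DMM then LPS for 4 h, and Adm and Ddit4 stay at 3 reads or fewer per library.

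Whether pretreatment changed the LPS response was asked next. DMM then LPS for 4 h against LPS for 4 h gave no call among the 6 genes, where 14.0% of all tested genes were called; 2 of the 6 had an unadjusted p under 0.05, and DESeq2 also called 0. Hif1a lay at 305 and 391 CPM after DMM, against 651 and 721 CPM without it, and the groups did not overlap. The log2 fold change was -0.98 ± 0.36 (95% interval -1.71 to -0.25; adjusted p = 0.0653, edgeR, 2 against 2 libraries). A fit of only those 4 libraries gave -0.84 with an adjusted p of 0.00594, which passes, and over all 10 alternatives the adjusted p ran from 0.00239 to 0.364. Egln3 lay at 11.2 and 26.0 CPM after DMM, against 6.40 and 7.53 CPM without it, 1.35 ± 0.60 on the log2 scale (95% interval 0.12 to 2.57; adjusted p = 0.118). Because Egln3 passed the filter only through the DMM-then-LPS libraries, its test is conditioned on those libraries being high, and its differences between DMM then LPS and LPS are a description. Leaving out DMM then LPS 4 h replicate 2 gave 0.69. So Hif1a lay lower and Egln3 higher in both DMM libraries, and neither passed in the model of all groups. The size of the Hif1a gap depends on the scaling. The scaled library sizes were 1779370 and 1077010 after DMM and 937708 and 929616 without it. The kept-gene totals before scaling were 1521915 and 1206470 after DMM and 1192797 and 1281163 without it. Set against those totals, Hif1a is still lower after DMM, but by less. No fit on totals was run.

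For the other genes the groups of the same contrast overlapped. Ero1l lay at 285 and 314 CPM with DMM then LPS for 4 h, against 298 and 319 CPM with LPS for 4 h, and its log2 difference of -0.04 had a 95% interval of -0.81 to 0.73. P4ha1 lay at 314 and 365 CPM against 292 and 349 CPM, a difference of 0.08 (-0.58 to 0.75). Bnip3 lay at 136 and 193 CPM against 137 and 149.5 CPM, a difference of 0.20 (-0.39 to 0.78). These overlaps depend on the scaling. Set against the kept-gene totals, Ero1l, P4ha1 and Bnip3 lay higher in both DMM libraries than in either LPS library, which was not tested. The effect of DMM under LPS at 4 h minus its effect alone was -0.56 ± 0.47 for Hif1a (adjusted p = 0.540), and 0 of 6 genes passed this interaction, where 5.43% of all genes did; none had an unadjusted p under 0.05, and DESeq2 called 0.

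At 48 h the DMM libraries differed from each other. Hif1a lay at 147 and 359.8 CPM with DMM then LPS for 48 h, against 377 CPM in the single LPS library. Ero1l likewise lay at 213 and 487 CPM against 248 CPM, and Bnip3l at 23.5 and 49.8 CPM against 32.8 CPM. In each case DMM replicate 1 was the lower one. The Hif1a log2 difference of -0.58 ± 0.44 (adjusted p = 0.581) was -0.10 without DMM replicate 1, -1.33 without DMM replicate 2 (adjusted p = 0.0595) and 0.27 with the set-apart library, over 8 alternatives with adjusted p of 0.0595 to 1.00. Egln3 was at 13.0 and 15.03 CPM against 4.83 CPM, 1.51 ± 0.85 (adjusted p = 0.413). No gene of the 6 passed, where 0.807% of all genes did; none had an unadjusted p under 0.05, and DESeq2 called 0. The DMM effect at 48 h minus that at 4 h was 0.40 ± 0.57 for Hif1a (adjusted p = 0.986), a comparison added after the data were seen, and 0 of the 6 passed, as did 0% of all genes; none had an unadjusted p under 0.05, and DESeq2 called 0.

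Reads of each target were also set against reads of Hif1a within the same library. The ratios are a description, since with so few libraries none could pass the test below at 0.05. P4ha1 had 1.36 and 2.02 reads per read of Hif1a with DMM then LPS for 48 h, against 0.8286 with LPS for 48 h, and 0.933 and 1.03 with DMM then LPS for 4 h, against 0.449 and 0.484 with LPS for 4 h. Ero1l had 1.35 and 1.45 against 0.657 at 48 h and 0.803 and 0.934 against 0.443 and 0.457 at 4 h. Egln3 per Hif1a was 0.0418 and 0.0884 against 0.0128 at 48 h and 0.0368 and 0.0665 against 0.00984 and 0.0104 at 4 h. In these 3 ratios every DMM library lay above every LPS library of its time. Bnip3 per Hif1a was 0.465 and 0.779 against 0.450 at 48 h, and 0.446 and 0.494 against 0.207 and 0.210 at 4 h. Bnip3l per Hif1a was 0.160 and 0.138 against 0.0870 at 48 h, and 0.118 and 0.114 against 0.0508 and 0.0552 at 4 h. The last 2 ratios likewise lay higher in each DMM library, Bnip3 at 48 h by the least. A two-sided exact permutation test within times gave p = 0.0556 for P4ha1, Ero1l, Egln3 and Bnip3l (BH over the 5 ratios 0.0694) and 0.111 for Bnip3; with 18 arrangements the design cannot go below 0.0556. All 5 ratios share Hif1a below the line and were chosen after the values were seen. A ratio shows unequal change and not which gene changed.

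**Figure D4:**
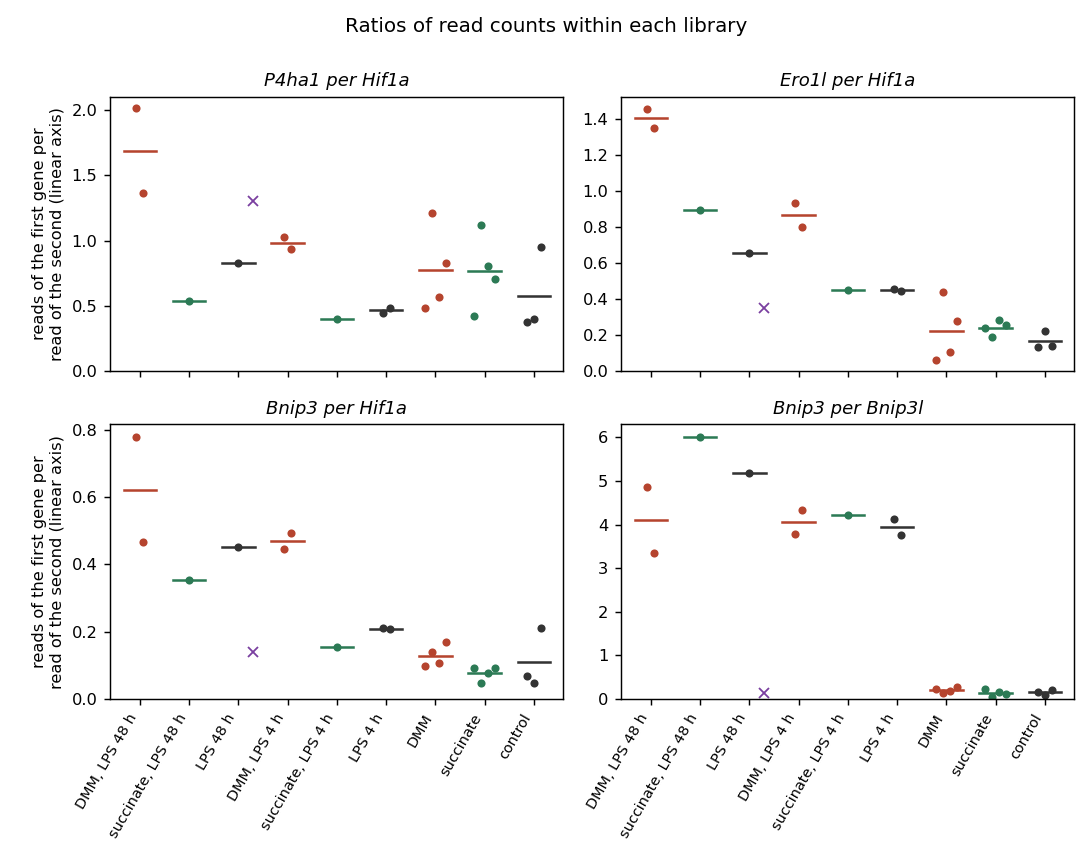
Ratios of read counts within each library (linear axes that differ between panels); points are libraries, lines group means, and the cross the set-apart library. P4ha1 and Ero1l per Hif1a are higher in each DMM-then-LPS library than in the LPS libraries of the same time. Bnip3 per Bnip3l is 3.36 or more in the 9 stimulated libraries that were kept and 0.262 or less in the 11 unstimulated ones. The set-apart library lies within the range of the unstimulated ones for that ratio.

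The summed fibroblast markers were higher with DMM under LPS, but not each marker. Their summed level over 4 genes was 16.9 to 21.9 CPM with DMM then LPS for 48 h against 9.65 CPM with LPS for 48 h. At 4 h it was 32.5 to 39.3 CPM with DMM then LPS against 6.45 to 14.9 CPM with LPS. Dcn (36.0 CPM) and Col3a1 (4.05 CPM) were highest in a DMM-then-LPS library. Col1a1 (8.69 CPM) and Col1a2 (3.20 CPM) were highest in an LPS library without pretreatment. Their part in the DMM differences was not tested. The summed neutrophil markers, nearly all S100a8, were 12.1 to 13.2 CPM against 7.72 CPM at 48 h and 199.5 to 320.3 CPM against 42.7 to 68.8 CPM at 4 h, with Ly6g and Ltf at 0 throughout. With succinate then LPS the neutrophil sum was higher still, at 80.7 CPM at 48 h and 565 CPM at 4 h, and the fibroblast sum was 5.68 CPM at 48 h and 2.57 CPM at 4 h. The part of these markers in the succinate differences below was not tested either. In bulk RNA, fewer cells of a type and less RNA per cell cannot be told apart.

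Succinate then LPS had 1 library per time. Hif1a lay at 639 CPM at 48 h, against 377 CPM with LPS for 48 h, and at 808 CPM at 4 h, against 651 and 721 CPM with LPS for 4 h. The succinate library was above the LPS libraries both times, and the log2 differences were 0.76 ± 0.51 (95% interval -0.27 to 1.79; adjusted p = 0.927) and 0.24 ± 0.44 (-0.65 to 1.13; adjusted p = 0.971). Ero1l lay at 571 CPM against 248 CPM at 48 h, 1.20 ± 0.53 on the log2 scale (unadjusted p = 0.0336, adjusted p = 0.671, edgeR), and at 363 CPM against 298 and 319 CPM at 4 h. Over 5 alternatives the 48 h difference ran from 0.73 to 2.05 for Hif1a (adjusted p 0.0191 to 1.00) and from 1.17 to 2.39 for Ero1l (adjusted p 0.0243 to 0.916). Of the 6 genes, 0 passed at 48 h (0.558% of all genes did; 1 of the 6 had an unadjusted p under 0.05) and 0 at 4 h (1.03%; none of the 6), and DESeq2 called 0 both times. The effect of succinate under LPS at 4 h minus its effect alone was called for 0 of the 6 (0.161% of all genes; none of the 6 with an unadjusted p under 0.05; DESeq2 0), and was 0.56 ± 0.53 for Hif1a.

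Without LPS neither compound moved the genes past the test. Hif1a lay at 49.1, 32.1, 54.6 and 56.5 CPM with DMM and at 63.5, 45.8, 53.5 and 43.1 CPM with succinate, against 75.5, 73.9 and 43.4 CPM in controls. The 3 groups overlapped, and the log2 differences from control were -0.42 (95% interval -1.05 to 0.20) for DMM and -0.32 (-0.94 to 0.30) for succinate. Called were 0 of 6 genes with DMM (0.558% of all genes) and 0 of 6 with succinate (0% of all genes), none of them with an unadjusted p under 0.05 and none by DESeq2. The only reads of Egln3 without LPS were 1 each in 2 of the 4 DMM libraries.

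Between the LPS times, 0 of the 6 genes were called for 48 h against 4 h, either without pretreatment (0.0147% of all genes) or after DMM (1.17%). None had an unadjusted p under 0.05 in either, and DESeq2 called 0 in both. Hif1a, at 377 CPM at 48 h against 651 and 721 CPM at 4 h, differed by -0.86 ± 0.44 (95% interval -1.76 to 0.03; adjusted p = 1.00). A fit of those 3 libraries alone gave -0.83 with an adjusted p of 0.000199, and over 8 alternatives the adjusted p ran from 0.000199 to 1.00. After DMM the difference was -0.46 ± 0.36 (adjusted p = 0.676). P4ha1 differed by -0.03 (95% interval -0.85 to 0.78) without pretreatment and by 0.21 (-0.45 to 0.87) after DMM.

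By group mean, Hif1a was highest with succinate then LPS for 4 h, at 808 CPM, followed by LPS for 4 h (686 CPM) and succinate then LPS for 48 h (639 CPM). Then came LPS for 48 h (377 CPM), DMM then LPS for 4 h (348 CPM) and DMM then LPS for 48 h (253 CPM), whose libraries overlapped with their neighbour in this order. The controls (64.3 CPM), succinate (51.5 CPM) and DMM (48.1 CPM) closed the order and overlapped. The genes whose centred log2 group means lay nearest to those of Hif1a over the 9 groups, among 4264 with a mean of at least 10 CPM, were Eno1 (root mean square difference 0.15), Ldha (0.24), Pgk1 (0.29), Clec4d (0.29) and Tmc3 (0.30). Eno1, Ldha and Pgk1 encode enzymes of glycolysis, Clec4d a C-type lectin receptor and Tmc3 a transmembrane channel-like protein. Of the targets outside glycolysis, P4ha1 ranked 75 (0.59), Bnip3 242 (0.88), Ero1l 299 (0.95) and Bnip3l 1860 (1.53). Eno1, for instance, averaged 1097 CPM with DMM then LPS for 4 h against 1771 CPM with LPS for 4 h, and 195 CPM in controls.

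Of 15 regulators of HIF, 11 were tested. With LPS against control 3 rose and 0 fell at both times, where 12.5% of all tested genes rose at 48 h and 15.4% at 4 h, with a median log2 fold change of 0.31 at 48 h and 0.13 at 4 h, beside -0.09 and -0.07 over all genes. They were Vhl, the recognition subunit of the ligase that removes HIF-1α, and its partners Elob and Eloc. Vhl lay at 13.5 CPM with LPS for 48 h and at 14.9 and 8.61 CPM with LPS for 4 h, against 5.10, 3.52 and 3.03 CPM in controls. Vhl had at most 10 reads in any unstimulated library and needed stimulated libraries to pass the filter. Its calls against unstimulated groups are therefore a description. Its log2 fold changes were 1.76 ± 0.60 (adjusted p = 0.0293, edgeR) and 1.57 ± 0.53 (adjusted p = 0.0189), though a pseudogene of Vhl may share its reads. Eloc rose by 1.33 ± 0.46 at 48 h and by 1.45 ± 0.39 at 4 h, and Elob by 1.07 ± 0.40 and 1.04 ± 0.33. These calls depended on the setting: at 48 h they were lost under 6 of 8 alternatives for Vhl, 6 of 9 for Eloc and 5 of 9 for Elob (adjusted p up to 0.226, 0.194 and 0.472), and at 4 h under 4 of 10, 1 of 11 and 3 of 11 (up to 0.274, 0.0560 and 0.155). Leaving out control 3 ended all 3 calls at 48 h, and leaving out control 4 (Vhl) or control 1 (Eloc) ended 1 each; at 4 h control 4 or LPS replicate 1 ended Vhl, LPS replicate 2 ended Eloc, and control 3 or LPS replicate 2 ended Elob. Over DMM alone, Vhl and Elob rose and Cited2, a competitor of HIF-1α for its coactivators, fell with LPS for 48 h, and Vhl rose and Cited2 fell with LPS for 4 h. Of the 11 regulators, that is 2 up and 1 down at 48 h and 1 up and 1 down at 4 h. Among all 6812 tested genes, 2098 were called in either direction at 48 h and 2322 at 4 h. These counts thus do not set the regulators apart from other genes. Cited2 lay at 3.24 and 0.939 CPM with DMM then LPS for 48 h and at 2.25 and 4.64 CPM with DMM then LPS for 4 h, against 11.1, 7.46, 14.6 and 13.0 CPM with DMM alone. The Vhl and Cited2 calls over DMM alone were lost without DMM then LPS replicate 2 at 48 h (adjusted p = 0.0603 and 0.0802) and without replicate 1 at 4 h (0.0843 and 0.226), and Elob was lost under 4 of 12 alternatives, among them leaving out DMM then LPS 48 h replicate 2 or DMM replicate 3. The regulators showed no call for either pretreatment under LPS, alone, or between times.

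Of 24 further HIF-1 targets outside glycolysis, 16 were tested. With LPS against control, 6 rose and 2 fell at 48 h, where 12.5% of all tested genes rose, and 8 rose and 2 fell at 4 h, where 15.4% rose. Of the 6812 tested genes, 1414 were called in either direction at 48 h, 849 of them higher. At 4 h 1899 were called, 1048 of them higher. Cxcr4 and Bhlhe41 fell at both times and are named for that direction. Bhlhe41 lay at 6.76 CPM at 48 h and 13.4 CPM at 4 h, against 95.8 CPM in controls (group means). Cxcr4 lay at 0 and 1.60 CPM, against 40.3 CPM. The median log2 fold change was 1.18 at 48 h and 1.46 at 4 h, beside -0.09 and -0.07 over all genes. The 3 with the smallest p at both times were Hmox1, the haem-degrading oxygenase, Cd274, which encodes the immune checkpoint ligand PD-L1, and Mif, a cytokine. Hmox1 reached 9209 CPM at 48 h and 11779 and 12895 CPM at 4 h, against 160.2, 138 and 164 CPM in controls. Its log2 fold changes were 5.90 ± 0.45 and 6.32 ± 0.36, and those of Cd274 were 5.87 ± 0.63 and 5.83 ± 0.57. Mif rose by 3.54 ± 0.44 and 3.56 ± 0.37, but pseudogenes of Mif may share its reads, and with all 21 libraries its 48 h call was lost (adjusted p = 0.0589). Over DMM alone, 10 rose and 2 fell with LPS for 48 h (15.4% of all genes rose) and 9 rose and 2 fell with LPS for 4 h (15.8%). In either direction, 2098 of the 6812 tested genes were called at 48 h and 2322 at 4 h. Hmox1, Cd274 and Mif again had the smallest p, and Cxcr4 and Bhlhe41 again fell at both times. A gene that passes the filter only through stimulated libraries has to rise with LPS. That holds for Lox, with at most 4 reads in any unstimulated library. Ankrd37 had no read in controls and 2 with DMM alone. The counts of genes that rose include such genes.

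Against LPS alone at 4 h, DMM then LPS raised 2 of the 16 further targets and lowered 2, where 14.0% of all tested genes were called in either direction. Kdm3a, a histone demethylase, lay at 17.98 and 15.8 CPM with DMM then LPS for 4 h, against 2.13 and 3.23 CPM with LPS for 4 h (log2 fold change 2.62 ± 0.72, adjusted p = 0.00331, edgeR). Those LPS libraries held only 2 and 3 reads of Kdm3a and lay below the controls, at 7.14, 11.7 and 6.05 CPM. The other gene that rose was P4ha2, which encodes a sister subunit of P4ha1 (1.20 ± 0.40, adjusted p = 0.0346), named after its values were seen. Lox and Plod1, which encode enzymes that modify collagen lysines, fell. Lox lay at 6.74 and 8.36 CPM against 19.2 and 31.2 CPM (-1.75 ± 0.48, adjusted p = 0.0106), and Plod1 at 122 and 118 CPM against 279 and 266 CPM (-1.18 ± 0.29, adjusted p = 0.00605). Single libraries decided these 4 calls: Kdm3a was lost without LPS replicate 1 (adjusted p = 0.0592), Plod1 without either DMM-then-LPS library (up to 0.0764), Lox without DMM then LPS replicate 1 or LPS replicate 2 (up to 0.167), and P4ha2 without DMM then LPS replicate 1 or LPS replicate 1 and under 3 other settings (up to 0.356). Kdm3a was also the only further target past the test for the DMM effect under LPS at 4 h minus its effect alone, by 2.92 ± 0.85 (adjusted p = 0.0199; 5.43% of all genes passed), a call lost under 5 of 16 alternatives (up to 0.119), among them leaving out control 3, DMM then LPS replicate 1 or either LPS library. Lox rose by 2.09 ± 0.46 for DMM then LPS at 48 h against 4 h (adjusted p = 0.0132; 1.17% of all genes called), lost under 4 of 9 alternatives (up to 0.372), among them leaving out 48 h replicate 1 or either 4 h library. Without LPS, Cxcr4, a chemokine receptor, fell with DMM to 3.17, 7.46, 16.6 and 13.0 CPM, against 60.2, 43.4 and 17.1 CPM in controls (-1.92 ± 0.44, adjusted p = 0.0362; 0.558% of all genes called). That call was lost under 7 of 12 alternatives (adjusted p up to 0.396): with all 21 libraries, in a fit of those groups alone, and on leaving out DMM replicate 1, 2 or 4 or control 1 or 3. DMM then LPS against LPS at 48 h, the contrasts of succinate, and time without pretreatment gave no call in this list. The 1 library of succinate then LPS for 4 h nevertheless differed from the same LPS 4 h libraries in the directions seen after DMM. The log2 differences were 1.90 for Kdm3a, 1.42 for P4ha2, -0.88 for Plod1 and -0.12 for Lox. Whether the 4 calls for DMM at 4 h reflect DMM or those shared LPS libraries was not tested. Both lists were chosen with earlier results of these data known, so their counts are no independent evidence of a direction.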

How the data were processed

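The authors deposited a table of raw read counts for 34573 gene symbols in 21 libraries. Per the labels, cells were lysed directly and full-length cDNA libraries were made by a method derived from SmartSeq2; no molecular identifiers are named, so reads are not independent molecules. The submitters' processing notes name TopHat2, Bowtie, HTSeq and edgeR; their versions, the genome build, the annotation and the use of strand are not given in the sources read for this work.

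Stimulated columns were matched to groups by treatment and hours in their names. Genes were kept at or above 9.64 CPM (10 reads at median depth) in 2 libraries or more and 15 reads in total, which left 6812. Scaling used TMM, the trimmed mean of M values; CPM are counts divided by the kept-gene total times the TMM factor and put on a common scale; those of the set-apart library come from a scaling of all 21. The 9 groups of 20 libraries were fitted in 1 model with edgeR 4.0.16 (robust quasi-likelihood, R 4.3.3; 11 residual degrees of freedom, common biological coefficient of variation 0.23), with BH adjustment over all tested genes and a threshold of 0.05; rose, fell and called mean past it. SE and 95% intervals are Wald values from the same fit. Fits were tested on simulated counts first. Fold bounds set 3 counts over a group of 0 reads, and count ratios carry exact 95% counting intervals.

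The members and lists were chosen with earlier results of these data known. Named were all 10 members, the 5 genes nearest to Hif1a in profile, and up to 3 genes per list and comparison with the smallest p. The older symbols Tceb1 and Tceb2 in the table were read as Eloc and Elob. Further lists were markers of macrophages, neutrophils, B and T cells, fibroblasts, dendritic cells, mast cells and erythroid cells. Alternatives were DESeq2 1.42.0, median-of-ratios scaling, testing all genes without the filter, all 21 libraries, only the groups compared, a replicate block, and each library left out. Gene positions are from GENCODE vM21 (GRCm38) and promoter windows from RefSeq (GRCm38.p6); neither was matched to the authors' build.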

Additional observations from a re-analysis of the deposited data

Results flagged for a closer look

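Adm in the 4 DMM libraries was flagged because its highest library, at 0.870 CPM, stood apart from the others at 0; that value is 1 read. It was the only such library among 16 gene and group pairs of 4 libraries tested this way. Chance flags about 1 in 20 where values are continuous, but 1 read beside libraries at 0 is always flagged. The flag therefore says nothing beyond that read.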

How the results depend on the processing

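Leaving out each library in turn gave 5 to 5 calls for LPS against control and for LPS over DMM alone at both times, and 0 to 0 in the other comparisons; succinate then LPS for 48 h, 1 library against 1, has no such fit and no fit of its own groups. For LPS for 48 h against control the count of 5 was 3 with all 21 libraries (Bnip3, Ero1l and P4ha1) and 3 in a fit of only the groups compared (Hif1a, Ero1l and P4ha1), where Bnip3 and Egln3 were not tested, since with 3 controls and 1 LPS library they could not pass the filter. For DMM then LPS for 4 h against LPS for 4 h the count of 0 was 2 in a fit of only the groups compared (Hif1a and Egln3, which passes the filter only through its DMM libraries). For LPS for 48 h against 4 h it was 1 in that fit (Hif1a).

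The replicate numbers were not taken to pair the samples, as not every same-numbered pair correlated above 0.1: the deviations correlated by 0.0044 in the stimulated 4 h groups and by -0.03 to 0.289 (median 0.148) over 10 unstimulated pairs, 7 of them over 0.1, against a median of -0.075 over 30 pairs of different number. Of the 11 unstimulated libraries, 8 correlated best with one of their own number, a hint from the data and not the design. Control 4 also correlated with succinate 2 (0.190) and DMM 2 (0.153). With DMM and succinate replicates 1 and 3 it correlated by -0.250 to -0.109. Whether the unstimulated libraries form sets by LPS time was not tested. With a replicate block the counts were 1 for DMM then LPS for 4 h against LPS (Hif1a, -0.99, adjusted p = 0.00239, edgeR), 1 for LPS for 48 h against 4 h (Hif1a, -1.51, adjusted p = 0.0388) and 2 for succinate then LPS for 48 h against LPS (Hif1a, 2.05, adjusted p = 0.0191; Ero1l, 2.39, adjusted p = 0.0243), and the block changed no other count. The cause of these moves was not tested. Of 968 recomputed log2 fold changes, 86 changed sign, 0 of them past the threshold under either setting. Called genes of the regulator and further target lists were put through the same alternatives after the data were seen, and no call changed sign. DESeq2, median-of-ratios size factors and no filter kept each count within 1.5 times of its value. At this depth a gene of 1 CPM has about 1 read, so Adm, Ddit4 and Vegfa could not be compared, and groups of 1 library borrow the spread of the others.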
